A study of Mus musculus with 15 samples.

Results

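A module of 42 genes that mark mesenchymal cells, stellate cells and mural cells, or that encode the fibrillar matrix such cells lay down, was followed across sorted cells of the mouse pancreas. The members were given as a list of gene names. Of the 42 genes, 41 had a probe set that names 1 gene, among 19938 such genes in the table, and 38 of the 41 passed the filter on dim signal. Fbn1 is not analysed here. Tbx18, Tcf21 and Meox2, transcription factors of mesenchymal and mural lineages, did not pass the filter, which asks for 3 arrays above 6.83, with values of 5.61 to 7.56 over the 15 arrays.

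The arrays came from 5 groups of sorted cells with n = 3 arrays each. Males that carried a Sox9-EGFP or an Ngn3-EGFP transgene were crossed to wild-type CD1 females, so every sample shared this outbred background, and cells with a strong GFP signal were collected by FACS. The Sox9-GFP+ groups were taken at e10.5, e15.5 and p23, where Sox9 marks pancreatic progenitors and later duct cells. The Ngn3-GFP+ group was taken at e15.5, where Ngn3 marks cells that enter the endocrine lineage, and the GFP- group came from Sox9-EGFP pancreas at p23. Several animals were pooled for each sort, so the p-values rest on the variation among pooled sorts rather than among animals, and the protocols name no gate against other cell types.

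Pancreatic mesenchyme wraps the epithelial bud and supplies it with growth factors. In the mature gland its descendants include stellate cells, which hold desmin and take on smooth muscle actin when they are activated, and pericytes, which cover capillaries. These cells secrete type I, III and V collagens, which assemble into fibrils, and small leucine-rich proteoglycans that coat those fibrils. They also make collagen VI microfibrils, elastic fibres and the lysyl oxidases that crosslink fibrillar collagen and elastin. Some members are not specific to mesenchyme: Sparc, Fn1 and Igfbp5 are also made by epithelia, and Thy1 also marks T cells.

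Values are the authors' array intensities as log2(intensity + 16), and changes are differences on that scale with limma standard errors. The offset of 16 makes such differences understate the change of dim genes. A call means an adjusted p (Benjamini-Hochberg over the 16883 genes tested) under 0.05. The array medians ran from 165.5 to 211.7 in intensity, and scaling the arrays to their medians moved the median change of all genes, at most from 0.04 to -0.14, between the e15.5 sorts. Between 29 and 39 of the 41 members lay above the filter level of 6.83 on an array. The Ngn3-GFP+ arrays were unlike each other, with member means of 7.69, 7.99 and 8.26, of which replicate 3 was the highest. Of the pancreatic epithelial markers (Cdh1, Epcam, Krt8, Krt18 and others), all 7 tested were lower in the GFP- group than in Sox9-GFP+ cells at p23. In bulk RNA, fewer cells of a type and less RNA per cell cannot be told apart.

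**Figure D1:**
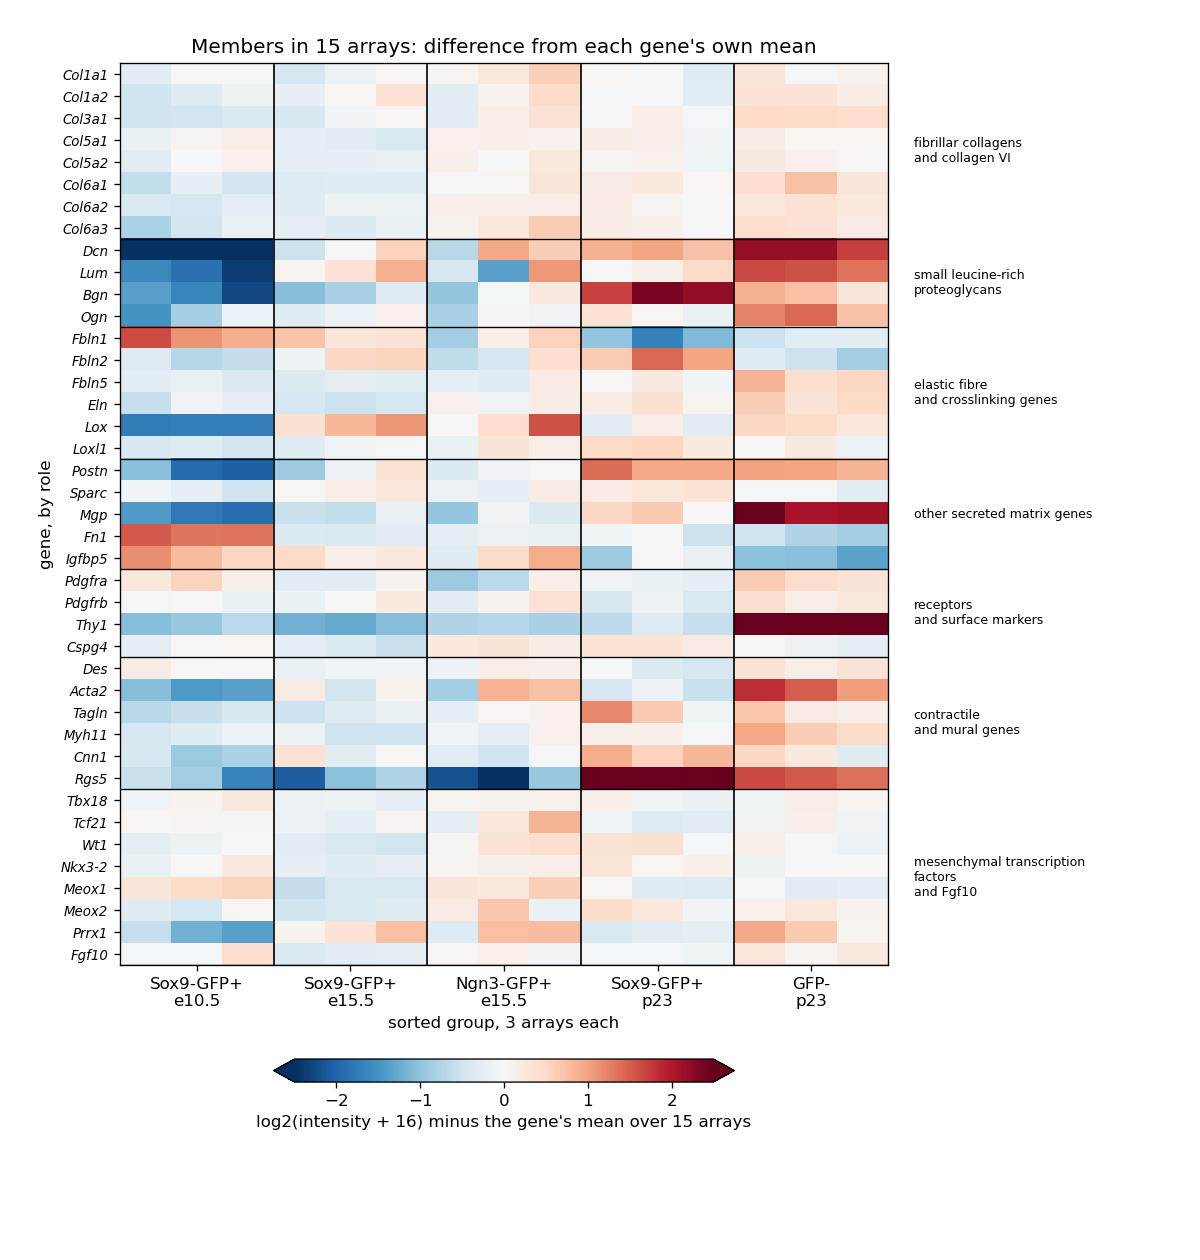
Heat map of the 41 members (rows, grouped by role) in 15 arrays (columns, 3 per sorted group); colour is log2(intensity + 16) minus the gene's own mean over all arrays, and differences beyond 2.5 are drawn at the end of the scale. The proteoglycans, Postn, Mgp and Lox were low at e10.5, Rgs5 was high in both p23 groups, and Thy1 stood out in GFP- cells.

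The members did not move as 1 block. From e10.5 to e15.5 in Sox9-GFP+ cells 11 of 38 rose and 3 fell, where 28.2% of all genes tested were called, 12.2% as higher and 16% as lower. From e15.5 to p23 18 rose and 2 fell, against 57.5% of all genes called, 30.7% higher and 26.8% lower. Over the whole span from e10.5 to p23 20 rose and 4 fell, against 41% called, 17.7% higher and 23.3% lower. Between the e15.5 sorts, Ngn3-GFP+ against Sox9-GFP+, 11 were higher and 0 lower by limma (12 and 0 at an unadjusted p under 0.05), against 41.7% called, 23.3% higher and 18.4% lower. In GFP- against Sox9-GFP+ cells at p23 14 were higher and 8 lower, against 36% called, 14.5% higher and 21.5% lower. The median change of the 38 members was 0.12, 0.31, 0.46, 0.24 and 0.26 in these comparisons in turn, beside -0.05, 0.05, -0.01, 0.04 and -0.07 for all genes. The comparisons share arrays, so they are not independent of each other. Groups whose arrays did not overlap were common among all genes tested. Their share was 57.3% from e10.5 to e15.5, 72.7% from e15.5 to p23 and 50.9% from e10.5 to p23. Between the e15.5 sorts it was 56.2%, and between the p23 sorts 47.3%. A lack of overlap alone therefore does not set a member apart.

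How many of the smaller changes were called in each direction depended on how arrays were scaled. From e10.5 to e15.5 the split of 11 higher and 3 lower became 10 and 7 when arrays were centred on the medians of the kept genes, 13 and 2 with centring on all probe sets and 9 and 2 with quantile normalization. From e15.5 to p23 the split of 18 and 2 became 12 and 4 with centring on all probe sets, 23 and 2 with centring on the kept genes and 15 and 4 with quantile normalization. Between the p23 sorts the split of 14 and 8 became 18 and 4, 19 and 3, and 18 and 6 under centring on all probe sets, centring on the kept genes and quantile normalization.

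The sequences upstream of Bgn, Rgs5 and Postn are shown because these members had the 3 largest rises from e15.5 to p23. Each run holds the 250 bases before the RefSeq start in GRCm38.p6, on the plus strand, and capitals mark a match to TATAAA or CCAAT on either strand. They were Rgs5 at chr1:169655251-169655500, Bgn at chrX:73483351-73483600 and the Postn window that holds a match at chr3:54360857-54361106.
Rgs5: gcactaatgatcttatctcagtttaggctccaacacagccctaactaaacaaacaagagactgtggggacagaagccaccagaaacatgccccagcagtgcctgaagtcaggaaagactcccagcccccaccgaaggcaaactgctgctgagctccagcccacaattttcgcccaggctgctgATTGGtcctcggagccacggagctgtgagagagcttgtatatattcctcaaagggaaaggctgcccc
Bgn: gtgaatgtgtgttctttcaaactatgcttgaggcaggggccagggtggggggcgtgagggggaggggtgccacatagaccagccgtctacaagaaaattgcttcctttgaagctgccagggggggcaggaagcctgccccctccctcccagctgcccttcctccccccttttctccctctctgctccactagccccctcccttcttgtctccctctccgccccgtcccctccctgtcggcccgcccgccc
Postn: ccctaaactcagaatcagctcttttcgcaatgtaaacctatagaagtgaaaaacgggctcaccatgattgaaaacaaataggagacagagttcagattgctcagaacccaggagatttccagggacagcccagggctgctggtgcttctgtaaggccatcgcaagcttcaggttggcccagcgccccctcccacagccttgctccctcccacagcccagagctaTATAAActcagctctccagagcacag
Of the 41 members, 26 had such windows, 30 windows in all. A member counted as a match if any of its windows matched, whereas the shares of all windows are per window. The TATAAA run occurred in 4 of the 26 genes (15.4%), beside 12.4% of all 32851 windows, and CCAAT in 5 (19.2%), beside 33.8%. The CArG box, the site of serum response factor in smooth muscle genes, was searched on both strands as an exact consensus. It matched in 0 of the 26, beside 1.47% of all windows, a share too low for 26 genes to show a lack. Members without a window were not searched. These matches describe letters only, and nothing about the binding of a factor follows from them.

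Of the 4 small leucine-rich proteoglycans, 3 rose from e10.5 to e15.5 in Sox9-GFP+ cells (median change 1.70) and 4 from e10.5 to p23 (median change 3.0). Among all genes tested 12.2% and 17.7% were called higher at these steps. Dcn encodes decorin, which binds collagen fibrils and sets their width. It read 6.73, 6.16 and 6.38 in the Sox9-GFP+ arrays of e10.5, all below the filter level, then 9.08, 9.57 and 10.18 at e15.5 and 10.49, 10.59 and 10.34 at p23. The Ngn3-GFP+ arrays read 8.91, 10.56 and 10.22 and the GFP- arrays 11.79, 11.78 and 11.34. The e10.5 arrays lay apart from all others, and the GFP- arrays were the highest. Dcn rose by 3.18 ± 0.35 from e10.5 to e15.5 (adjusted p = 2.85e-05), and by 4.04 ± 0.35 from e10.5 to p23 (adjusted p = 4.48e-07). The step from e15.5 to p23 was 0.86 ± 0.35 with an adjusted p of 0.0484, and this call was lost without any 1 of the Sox9-GFP+ replicates 1 and 2 at e15.5 or 1, 2 and 3 at p23, with adjusted p up to 0.193. It was also lost with arrays centred on all probe sets (0.70, adjusted p = 0.136) and with the replicate number as a block (adjusted p = 0.0549).

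Bgn encodes biglycan, a related proteoglycan that also acts as a danger signal in injured tissue. It read 6.99, 6.73 and 6.09 at e10.5, 7.28, 7.54 and 8.03 at e15.5 and 10.06, 10.71 and 10.57 at p23 in Sox9-GFP+ cells. The other sorts read 7.36, 8.33 and 8.58 in Ngn3-GFP+ cells and 9.25, 9.10 and 8.66 in GFP- cells. The 3 Sox9-GFP+ arrays of p23 lay above all other arrays. Bgn rose by 2.83 ± 0.32 from e15.5 to p23, 7.13-fold (adjusted p = 8.53e-06), and by 3.84 ± 0.32 from e10.5 (adjusted p = 2.68e-07). Its rise of 1.01 ± 0.32 from e10.5 to e15.5 (adjusted p = 0.0311) was lost without replicate 2 or 3 of either age, with adjusted p up to 0.151.

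Lum, which encodes lumican, a fibril-binding proteoglycan, went from 5.51, 5.27 and 4.75 at e10.5 to 7.20, 7.49 and 8.02 at e15.5 and stayed at 7.11, 7.28 and 7.60 at p23. The rise of 2.40 ± 0.43 to e15.5 (adjusted p = 0.00173) started below the filter level, and with an offset of 64 it came to 1.5. The step from e15.5 to p23 was -0.24 ± 0.43 (adjusted p = 0.642). Ogn, which encodes osteoglycin, of the same family, read 5.83, 6.49 and 7.18 at e10.5 and 7.67, 7.37 and 7.16 at p23, so the groups overlapped. Its change of 0.90 ± 0.30 between those ages (adjusted p = 0.0284) was lost without replicate 1 or 2 of either age, with adjusted p up to 0.153.

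The 5 other secreted members went in opposite directions. Postn encodes periostin, a matricellular protein of activated fibroblasts and wound tissue. It read 7.77, 6.88 and 6.77 at e10.5, 7.90, 8.67 and 9.18 at e15.5 and 10.21, 9.77 and 9.77 at p23 in Sox9-GFP+ cells, so each age lay above the one before it. Ngn3-GFP+ cells read 8.47, 8.72 and 8.85, within the spread of the e15.5 Sox9-GFP+ arrays, and GFP- cells read 9.83, 9.81 and 9.66. Postn rose by 1.44 ± 0.29 to e15.5 (adjusted p = 0.00358) and by a further 1.34 ± 0.29 to p23 (adjusted p = 0.00185), in all 6.87-fold from e10.5 to p23. The p23 sorts differed by -0.15 ± 0.29 (adjusted p = 0.736).

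Mgp encodes matrix Gla protein, an inhibitor of calcification made by fibroblasts and vascular smooth muscle. It read 6.45, 6.08 and 5.99 at e10.5, 7.32, 7.25 and 7.69 at e15.5 and 8.38, 8.53 and 7.88 at p23 in Sox9-GFP+ cells, against 10.39, 9.92 and 9.96 in GFP- cells at p23 and 6.90, 7.78 and 7.51 in Ngn3-GFP+ cells. It rose by 1.24 ± 0.23 to e15.5 (adjusted p = 0.0022) and by 0.85 ± 0.23 from there to p23 (adjusted p = 0.00745). None of its groups along this course overlapped, as held for 57.3% and 72.7% of all genes at the same steps.

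Fn1 encodes fibronectin, the adhesive glycoprotein of provisional matrix. It was highest at e10.5, at 11.71, 11.51 and 11.52, and read 9.83, 9.80 and 9.90 at e15.5 and 10.11, 10.18 and 9.64 at p23 in Sox9-GFP+ cells. The Ngn3-GFP+ arrays read 9.93, 10.03 and 9.98 and the GFP- arrays 9.67, 9.41 and 9.31. All 12 later arrays lay below the 3 of e10.5. Fn1 fell by 1.74 ± 0.14 from e10.5 to e15.5, 3.33-fold (adjusted p = 1.86e-06), and did not pass the test from e15.5 to p23 (0.13 ± 0.14, adjusted p = 0.42). Igfbp5, whose protein binds insulin-like growth factors in the matrix, fell by 1.18 ± 0.29 from e10.5 to p23 (adjusted p = 0.00402). Sparc, which encodes osteonectin, a collagen-binding protein, lay between 11.81 and 12.66 on all 15 arrays and rose by 0.54 ± 0.14 from e10.5 to p23 (adjusted p = 0.00755).

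**Figure D2:**
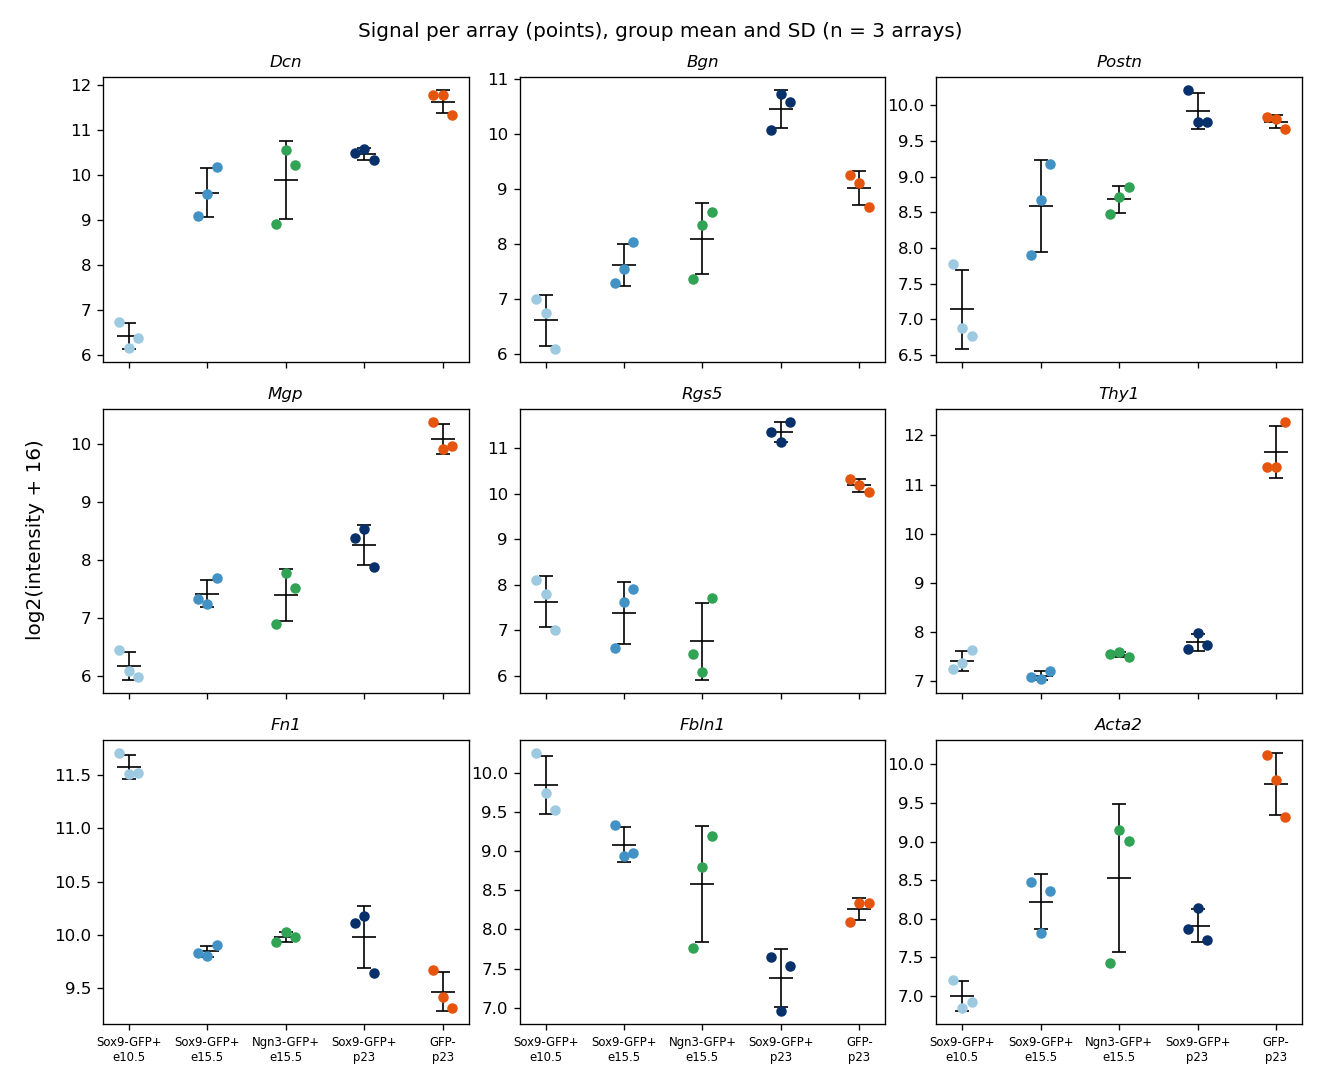
Signal of 9 members as log2(intensity + 16) (vertical axes, each with its own range) by sorted group (horizontal axes); points are arrays, bars the group mean and SD (n = 3). Dcn, Postn and Mgp were lowest at e10.5 and Fn1 and Fbln1 highest there, Rgs5 read 11.14 to 11.59 in Sox9-GFP+ cells at p23, and Thy1 read 11.36 to 12.28 in GFP- cells and 7.04 to 7.99 in the other groups.

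Rgs5, which encodes a regulator of G protein signalling used as a marker of pericytes, had the largest rise of any member from e15.5 to p23. In Sox9-GFP+ cells it read 8.10, 7.80 and 7.0 at e10.5, 6.61, 7.63 and 7.90 at e15.5 and 11.35, 11.14 and 11.59 at p23. Ngn3-GFP+ cells read 6.48, 6.08 and 7.71 and GFP- cells 10.32, 10.19 and 10.05. Both p23 groups lay above all embryonic arrays, whose groups overlapped each other. Rgs5 rose by 3.98 ± 0.39 from e15.5 to p23, 15.8-fold (adjusted p = 2.82e-06), and was 3.73 ± 0.39 higher at p23 than at e10.5 (adjusted p = 3.31e-06). At p23 it was 1.18 ± 0.39 lower on the log2 scale in GFP- than in Sox9-GFP+ cells (adjusted p = 0.0301), a call lost with arrays centred on all probe sets (adjusted p = 0.067) and without replicate 1 or 3 of the Sox9-GFP+ or any replicate of the GFP- arrays, with adjusted p up to 0.0906.

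Of the other contractile genes Tagln, Cnn1 and Myh11 also rose from e15.5 to p23, by less. Tagln, which encodes transgelin, an actin-binding protein of smooth muscle, rose by 0.93 ± 0.25 (adjusted p = 0.00719). Cnn1, which encodes calponin of the same cells, rose by 0.74 ± 0.22 (adjusted p = 0.0105), a call lost without replicate 2 of e15.5 (adjusted p = 0.054), with quantile normalization (0.0592) and with centring on all probe sets (0.0502). The rise of 0.45 ± 0.15 in Myh11, the smooth muscle myosin (adjusted p = 0.0204), was lost under the same scalings (0.0566 and 0.0807) and without replicate 2 or 3 of e15.5 or 1 or 2 of p23, with adjusted p up to 0.0779. Acta2, which encodes the smooth muscle actin of activated stellate cells, read 7.21, 6.84 and 6.92 at e10.5, 8.48, 7.81 and 8.36 at e15.5 and 7.86, 8.14 and 7.72 at p23 in Sox9-GFP+ cells. Its rise of 1.23 ± 0.36 to e15.5 (adjusted p = 0.0241) was lost without replicate 2 or 3 of e10.5 or 1 or 3 of e15.5, with adjusted p up to 0.0864, and with quantile normalization (adjusted p = 0.0549). In Ngn3-GFP+ cells Acta2 read 7.42, 9.15 and 9.01, the widest spread of its 5 groups (SD 0.96). From e10.5 to p23 Cnn1 rose by 1.49 ± 0.22 (adjusted p = 6.73e-05) and Tagln by 1.14 ± 0.25 (adjusted p = 0.00225). Tagln read 9.07, 8.52 and 7.76 on the 3 p23 arrays. Des, which encodes the desmin of quiescent stellate cells and muscle, stayed between 6.72 and 7.5 on all arrays, near the filter level, and was not called at any Sox9-GFP+ age step.

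Among the elastic fibre and crosslinking genes the fibulins split. Fbln1 encodes fibulin 1, a glycoprotein of elastic fibres and basement membranes. It read 10.26, 9.75 and 9.53 at e10.5, 9.34, 8.94 and 8.98 at e15.5 and 7.65, 6.95 and 7.53 at p23, with no overlap between ages, and 7.76, 8.80 and 9.20 in Ngn3-GFP+ and 8.10, 8.34 and 8.34 in GFP- cells. Fbln1 fell by 1.71 ± 0.30 from e15.5 to p23, 3.27-fold (adjusted p = 0.000445), and by 2.47 ± 0.30 from e10.5 to p23 (adjusted p = 1.35e-05). Fbln2, which encodes the related fibulin 2, went the other way. It read 8.26, 7.88 and 8.0, then 8.47, 9.10 and 9.15, and then 9.22, 10.02 and 9.57 at the 3 ages, a rise of 1.56 ± 0.28 from e10.5 to p23 (adjusted p = 0.000405). Ngn3-GFP+ cells read 7.95, 8.14 and 9.01 for Fbln2.

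Lox encodes lysyl oxidase, which starts the crosslinks of collagen and elastin. It read 4.64, 4.68 and 4.65 at e10.5, 6.77, 7.22 and 7.48 at e15.5 and 6.10, 6.54 and 6.12 at p23 in Sox9-GFP+ cells, 6.38, 6.80 and 7.98 in Ngn3-GFP+ cells and 6.91, 6.85 and 6.65 in GFP- cells. The e10.5 arrays were the lowest, and the e15.5 arrays lay above those of p23 only by a small gap, near the filter level. The rise of 2.5 ± 0.30 to e15.5 (adjusted p = 6.26e-05) came to 1.39 with an offset of 64. The fall of 0.90 ± 0.30 to p23 (adjusted p = 0.0203) was lost without replicate 2 or 3 of e15.5 or 1 or 3 of p23, with adjusted p up to 0.084. Loxl1, a relative needed for elastic fibres, rose by 0.57 ± 0.14 from e15.5 to p23 (adjusted p = 0.00446), and Eln, which encodes tropoelastin, by 0.67 ± 0.14 (adjusted p = 0.0014). The Eln arrays read 8.07, 8.55 and 8.44 at e10.5, 8.23, 8.11 and 8.20 at e15.5, 8.82, 9.03 and 8.71 at p23, 8.74, 8.54 and 8.83 in Ngn3-GFP+ cells and 9.25, 8.97 and 9.14 in GFP- cells.

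The collagen genes themselves moved little. The 8 members of this role encode chains of collagens I, III, V and VI. From e10.5 to e15.5 0 were called by limma (1 had an unadjusted p under 0.05), 3 rose from e15.5 to p23 and 4 from e10.5 to p23. The medians were 0.13, 0.27 and 0.32. Among all genes tested 12.2%, 30.7% and 17.7% were called higher at these steps. The 3 rises from e15.5 to p23 became 1 with centring on all probe sets, 5 with centring on the kept genes and 3 with quantile normalization. The 0 calls from e10.5 to e15.5 became 1 rise with centring on all probe sets and 1 fall with centring on the kept genes. Col6a1 read 7.27, 7.69 and 7.41 at e10.5, 7.56, 7.59 and 7.59 at e15.5, 8.07, 8.13 and 7.93 at p23, 7.86, 7.93 and 8.20 in Ngn3-GFP+ cells and 8.31, 8.62 and 8.20 in GFP- cells. Its rise of 0.58 over e10.5 at p23 (adjusted p = 0.00381) was the largest among the 8. The step from e15.5 to p23 of 0.46 (adjusted p = 0.0126) came to 0.31 with arrays centred on all probe sets (adjusted p = 0.0944). Col1a1, the main chain of type I collagen, differed by 0.06 ± 0.16 from e15.5 to p23 (adjusted p = 0.752) and by 0.02 ± 0.16 from e10.5 to p23 (adjusted p = 0.952). Col1a2 read 8.99 to 9.36 at e10.5, 9.28 to 9.85 at e15.5 and 9.23 to 9.45 at p23.

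Of the 4 receptors and surface markers, Pdgfra and Pdgfrb, the receptors for platelet-derived growth factor of fibroblasts and pericytes, were not called at any Sox9-GFP+ age step. Cspg4, which encodes the NG2 proteoglycan of pericytes, read 7.0, 7.26 and 7.29 at e10.5, 7.0, 6.90 and 6.68 at e15.5, 7.59, 7.58 and 7.45 at p23, 7.49, 7.57 and 7.43 in Ngn3-GFP+ cells and 7.30, 7.10 and 7.0 in GFP- cells. Its mean was lowest in Sox9-GFP+ cells of e15.5, and it rose by 0.68 ± 0.12 from there to p23 (adjusted p = 0.000481), or by 0.44 with quantile normalization.

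The regulators were dim and moved in both directions. Prrx1, a homeodomain factor of limb and gut mesenchyme, read 6.72, 6.08 and 5.92 at e10.5, 7.37, 7.62 and 8.04 at e15.5 and 6.90, 7.02 and 7.04 at p23, so the e15.5 arrays were the highest of the Sox9-GFP+ sorts. It rose by 1.44 ± 0.30 to e15.5 (adjusted p = 0.00427), while the step to p23 of -0.69 ± 0.30 was not called (adjusted p = 0.0616). Prrx1 read 6.97, 8.03 and 8.05 in Ngn3-GFP+ and 8.23, 7.95 and 7.36 in GFP- cells. Meox1, a homeodomain factor of somites, read 7.48, 7.64 and 7.73 at e10.5 and 6.58, 6.79 and 6.80 at e15.5, a fall of 0.89 ± 0.13 (adjusted p = 0.000404), and 7.20, 6.87 and 6.85 at p23. Wt1, a zinc finger factor of mesothelium and stellate cell precursors, read 7.47, 7.60 and 7.69 at e10.5, 7.46, 7.36 and 7.26 at e15.5 and 8.06, 8.10 and 7.69 at p23, and rose by 0.59 ± 0.14 from e15.5 to p23 (adjusted p = 0.00296). Fgf10, the mesenchymal growth factor that maintains pancreatic progenitors, read 7.10, 7.10 and 7.57 at e10.5 and 6.77, 6.86 and 6.91 at e15.5. Its fall of 0.41 ± 0.13 (adjusted p = 0.0306) came to -0.20 with quantile normalization (adjusted p = 0.243) and -0.24 with arrays centred on all probe sets (adjusted p = 0.118), and was lost without replicate 3 of e10.5 or any replicate of e15.5, with adjusted p up to 0.145.

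The 2 sorts of p23 compare Sox9-GFP+ cells with GFP- cells of the same kind of gland, a mixed group defined by the lack of the reporter signal. Which cell types it held, and in what shares, was not measured. Thy1, which encodes a surface glycoprotein of fibroblasts and T cells, differed most. It read 7.25, 7.37 and 7.64 at e10.5, 7.10, 7.04 and 7.22 at e15.5, 7.65, 7.99 and 7.74 at p23 and 7.55, 7.60 and 7.49 in Ngn3-GFP+ cells, but 11.36, 11.36 and 12.28 in GFP- cells, far above all other arrays. Thy1 was 3.87 ± 0.20 higher in GFP- than in Sox9-GFP+ cells at p23, 14.6-fold (adjusted p = 2.37e-09). The T cell gene Cd3e read 9.88, 9.84 and 10.35 in the same GFP- arrays and 8.14, 8.31 and 8.20 in the Sox9-GFP+ arrays. Its part in the Thy1 difference was not tested.

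Acta2 and Mgp followed. Acta2 read 10.12, 9.80 and 9.32 in GFP- cells, above its 3 Sox9-GFP+ arrays at p23, and was 1.84 ± 0.36 higher there (3.58-fold, adjusted p = 0.000932). Mgp was 1.82 ± 0.23 higher in GFP- cells (3.54-fold, adjusted p = 2.1e-05). Smaller differences in the same direction held for Myh11 (0.62, adjusted p = 0.00458), Pdgfrb (0.59, adjusted p = 0.00814) and Des (0.53, adjusted p = 0.0052), and these 6 calls held with each of the 6 arrays left out and under every other setting that tested them. The remaining 8 higher calls (Lum, Dcn, Ogn, Fbln1, Prrx1, Pdgfra, Fbln5 and Col3a1) ran from 0.44 to 1.33. Each of them was lost without at least 1 of the 6 arrays, with the highest adjusted p between 0.0582 for Ogn, lost without GFP- replicate 2, and 0.147 for Fbln1. Dcn was 1.16 ± 0.35 higher in GFP- cells (adjusted p = 0.0173), and its call was lost without replicate 3 of the Sox9-GFP+ or replicate 1 or 2 of the GFP- arrays, with adjusted p up to 0.0583. Col3a1, the chain of type III collagen, read 8.80, 8.82 and 8.94 at e10.5, 8.91, 9.24 and 9.36 at e15.5, 9.04, 9.47 and 9.66 in Ngn3-GFP+ cells and 9.29, 9.47 and 9.26 at p23 against 9.81, 9.77 and 9.75 in GFP- cells. Its adjusted p of 0.0363 rose to at most 0.0983 without a single array.

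Fbln2 and Bgn went the other way and were higher in Sox9-GFP+ cells. Fbln2 read 8.29, 8.05 and 7.71 in GFP- cells, below every Sox9-GFP+ array of p23, a difference of -1.59 ± 0.28 (3-fold, adjusted p = 0.000376). Bgn differed by -1.44 ± 0.32 (2.72-fold, adjusted p = 0.00221). Both calls held with each array left out and under every other setting that tested them. The other 6 lower calls were Rgs5, Igfbp5, Cnn1, Fn1, Cspg4 and Loxl1, between -0.39 and -1.18, and each was lost without at least 1 array, with a highest adjusted p of 0.0529 for Fn1 and 0.184 for Igfbp5. Igfbp5, Cnn1 and Loxl1 were also lost with quantile normalization and with centring on all probe sets, and Fn1 and Cspg4 with centring on the kept genes (adjusted p = 0.0788 and 0.171). The proteoglycan family was therefore split between the sorts, with Dcn, Lum and Ogn higher in GFP- cells and Bgn higher in Sox9-GFP+ cells under each of the 4 scalings.

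**Figure D3:**
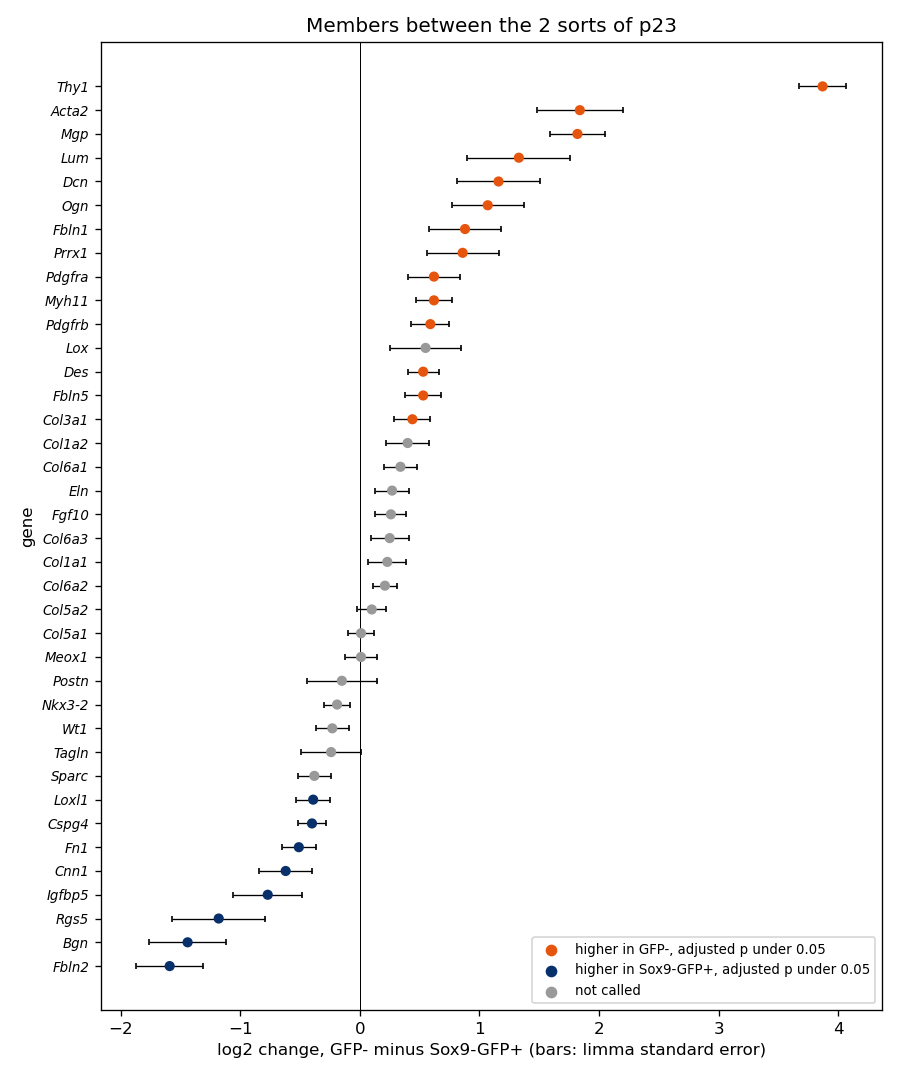
Change of the 38 tested members between the p23 sorts on the log2(intensity + 16) scale (horizontal axis, GFP- minus Sox9-GFP+; bars are limma standard errors, n = 3 arrays per group), ordered by size. Thy1 lies furthest to the right at 3.87, and Fbln2, Bgn and Rgs5 lie furthest to the left.

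Markers of other cell types moved with this comparison. Of 12 leukocyte markers (Ptprc, Cd52, Coro1a and others), 10 were higher in GFP- cells, and the summed intensity of the list was 45559 to 62680 there against 2325 to 4542 in Sox9-GFP+ cells at p23. Csf1r, which was not called, went the other way, at 7.92, 7.96 and 8.10 in GFP- cells against 8.30, 8.40 and 8.16. Of 14 endothelial markers 8 were higher, with sums of 4969 to 5779 against 1977 to 2419. Among all genes tested 14.5% were higher and 21.5% lower. In Sox9-GFP+ cells at p23, 10 to 11 leukocyte and 11 to 14 endothelial markers lay above the filter level on an array. On each GFP- array these counts were 12 and 14. The part of these cell types in the members' differences was not tested.

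The same lists also differed between the Sox9-GFP+ ages. From e15.5 to p23, 13 of 14 endothelial, 8 of 12 leukocyte and 7 of 9 mesothelial markers rose (Wt1 is also a member), beside 30.7% of all genes. These counts were 5, 8 and 4 with quantile normalization, 7, 7 and 4 with centring on all probe sets and 13, 10 and 7 with centring on the kept genes. The leukocyte sum was 1578 to 1678 at e15.5, and the mesothelial sum was 892 to 1187 at e15.5 and 1689 to 2153 at p23. From e10.5 to e15.5, 1 endothelial marker rose and 2 fell, 1 mesothelial marker fell, and 0 leukocyte markers were called by limma (2 were lower at an unadjusted p under 0.05). Among all genes 12.2% rose and 16% fell at that step. Acinar and islet markers also shifted. At the same step 5 of 6 acinar markers rose (median change 3.06), as did 3 of 7 islet markers, and 0 of either list fell. From e15.5 to p23 6 of 7 islet markers fell (median change -3.57), beside 26.8% of all genes, while 2 acinar markers rose and 2 fell. The acinar sum was 43676 to 50869 in Sox9-GFP+ cells at p23 and 54773 to 58513 in GFP- cells. The part of these cell types in the rise of Rgs5, Bgn and the other members was not tested. Markers of red blood cells summed to 2039, 3116 and 669 on the e10.5 arrays and 1356, 317 and 341 on the e15.5 arrays, so their level varied within each age.

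**Figure D4:**
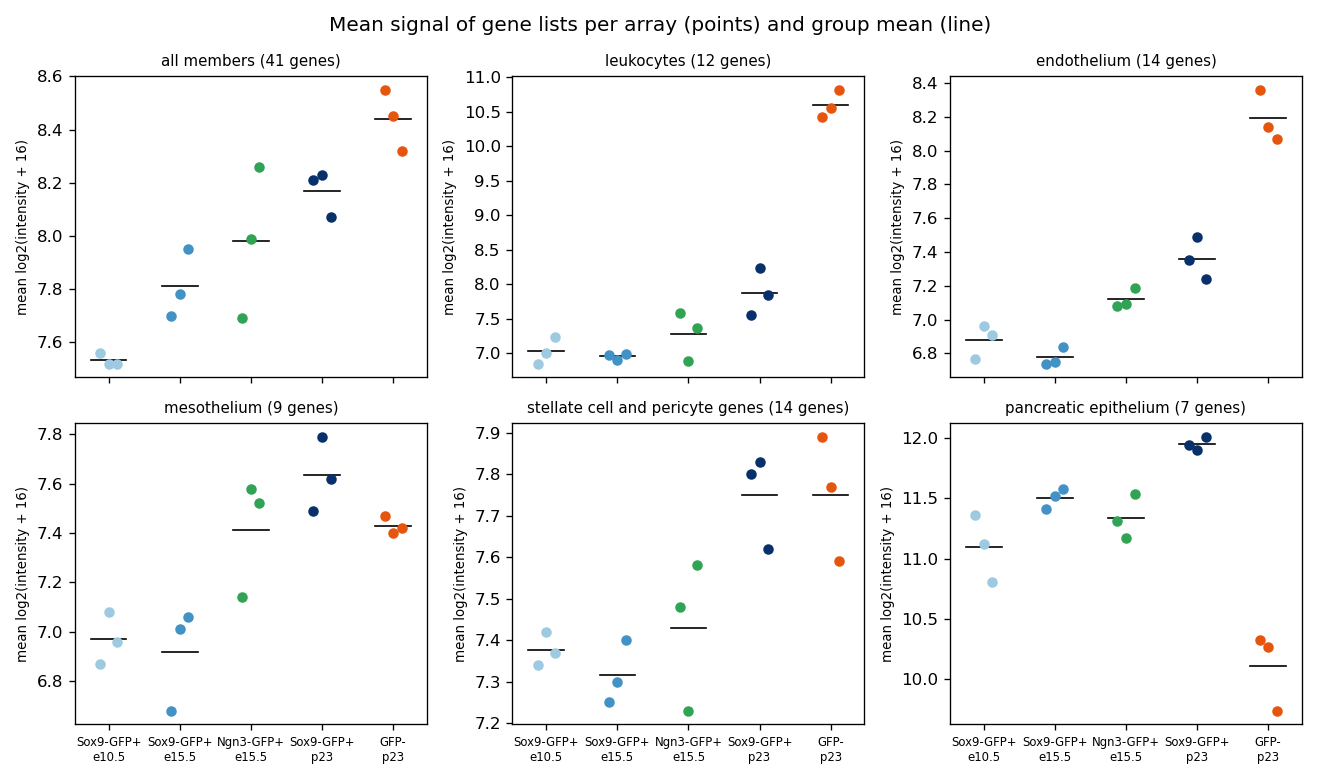
Mean log2(intensity + 16) of 6 gene lists (panels, vertical axes with their own ranges) by sorted group (horizontal axes); points are arrays and lines group means (n = 3). The members' mean went from 7.52 to 7.56 at e10.5 to 8.07 to 8.23 in Sox9-GFP+ cells at p23, the leukocyte list was far higher in GFP- cells, and the epithelial list was lowest there.

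At e15.5 cells sorted by the Ngn3 reporter are compared with cells sorted by the Sox9 reporter. The Sox9-GFP+ sort also held islet transcripts. The mean of 7 islet markers (hormones, granins and Insm1) was 11.37, 12.17 and 11.97 there and 12.78, 12.50 and 12.51 in Ngn3-GFP+ cells. By limma 3 of these 7 were higher in Ngn3-GFP+ cells, and 5 of 6 acinar markers were lower, beside 23.3% and 18.4% of all genes. The part of these cell types in the members' differences was not tested. The called differences of the members were small, from 0.35 to 0.84. Meox1 differed most, at 7.48, 7.44 and 7.77 in Ngn3-GFP+ cells, above every Sox9-GFP+ array of e15.5, a difference of 0.84 ± 0.13 (adjusted p = 0.000873). Those 3 Sox9-GFP+ arrays, at 6.58, 6.79 and 6.80, all lay below the filter level. Wt1 read 7.79, 8.07 and 8.14 and was 0.64 ± 0.14 higher (adjusted p = 0.00456), and Cspg4 was 0.64 ± 0.12 higher (adjusted p = 0.00246). Col6a3, a chain of collagen VI, read 7.12, 7.44 and 7.72 at e10.5, 7.66, 7.58 and 7.72 at e15.5, 8.01, 8.17 and 8.55 in Ngn3-GFP+ cells, 8.09, 8.04 and 7.86 in Sox9-GFP+ and 8.35, 8.27 and 8.11 in GFP- cells at p23. It was 0.59 higher in Ngn3-GFP+ than in Sox9-GFP+ cells at e15.5 (adjusted p = 0.0122), and Eln 0.52 higher (adjusted p = 0.0118). These 5 calls held with each array left out and under every other setting that tested them.

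Of the 8 collagen genes 6 were called higher in Ngn3-GFP+ cells, with a family median of 0.38. That count was 1 with arrays centred on all probe sets (median 0.19), 3 with quantile normalization and 6 with centring on the kept genes. Col1a1 was 0.48 ± 0.16 higher (adjusted p = 0.0304), and this call was lost without replicate 1 or 2 of the Sox9-GFP+ or replicate 3 of the Ngn3-GFP+ arrays, with adjusted p up to 0.127, and without the arrays of the other groups in the fit (adjusted p = 0.0805). The count of all members called was 7 without any 1 of the Sox9-GFP+ arrays and 16 without replicate 1 of the Ngn3-GFP+ arrays. Without replicate 3 of the Ngn3-GFP+ arrays it was 8 higher and 6 lower, against 11 and 0 with that array in. Of the proteoglycans, contractile genes and other secreted members 0 passed the limma test between these sorts, and 0 had an unadjusted p under 0.05. Their values spread widely in Ngn3-GFP+ cells, with an SD of 1.23 for Lum, 0.87 for Dcn and 0.85 for Rgs5. Mesothelial markers were higher for 6 of 9 and lower for 1, and endothelial markers higher for 6 of 14, with mesothelial sums of 1265 to 1858 in Ngn3-GFP+ cells. Among all genes tested 23.3% were higher and 18.4% lower. With quantile normalization 2 mesothelial and 0 endothelial markers were higher by limma (3 endothelial at an unadjusted p under 0.05), with centring on all probe sets 3 and 2, and with centring on the kept genes 6 and 8. Their part in the members' differences was not tested here.

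Genes that work with the members gave a different picture from the members in some comparisons. Their counts stand beside these shares of all genes tested. From e10.5 to e15.5 12.2% were higher and 16% lower, and from e15.5 to p23 30.7% and 26.8%. In Ngn3-GFP+ against Sox9-GFP+ cells the shares were 23.3% and 18.4%, and in GFP- against Sox9-GFP+ cells at p23 14.5% and 21.5%. Of 20 genes for collagen synthesis and processing (prolyl and lysyl hydroxylases, chaperones and propeptide proteases), 10 fell and 2 rose from e15.5 to p23, and Plod2, a lysyl hydroxylase for collagen crosslinks, fell by 1.93 ± 0.22 (adjusted p = 9.11e-06). Their median of -0.54 lay between -0.37 and -0.70 under the other scalings, while that of the collagen genes lay between 0.11 and 0.39. With centring on the kept genes 8 fell and 4 rose. From e10.5 to e15.5 4 of the 20 rose and 1 fell, or 4 and 3 with centring on the kept genes. Between the p23 sorts 3 were higher and 6 lower in GFP- cells, but 4 and 3 with quantile normalization and with centring on the kept genes, and 2 and 4 with centring on all probe sets. P4ha3, a prolyl hydroxylase subunit, was 3.34 ± 0.28 lower there on the log2 scale (adjusted p = 2.99e-07).

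Of 29 other matrix and fibroblast genes, 14 rose and 8 fell from e15.5 to p23. Dpt, which encodes dermatopontin, a partner of decorin, rose by 3.53 ± 0.54 (adjusted p = 0.000137), Timp3, a matrix-bound inhibitor of metalloproteases, by 3.44 ± 0.35 (adjusted p = 3.58e-06) and Efemp1, a fibulin, by 3.27 ± 0.18 (adjusted p = 8.25e-09). From e10.5 to e15.5 8 rose and 5 fell, but 7 and 9 with centring on the kept genes and 10 and 2 with centring on all probe sets. Between the p23 sorts 3 were higher and 11 lower in GFP- cells (6 and 9 with centring on the kept genes), with S100a4, a calcium-binding protein of fibroblasts and macrophages, 2.87 ± 0.32 higher (adjusted p = 6.51e-06) and Timp3 2.44 ± 0.35 lower (adjusted p = 6.29e-05).

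Of 18 regulators of embryonic gut and pancreas mesenchyme, 10 fell and 1 rose from e10.5 to e15.5, beside the falls of Meox1 and Fgf10 among the members. Foxf1, a forkhead factor of splanchnic mesenchyme, fell by 1.81 ± 0.22 (adjusted p = 6.51e-05) and Nr2f2, a nuclear receptor of mesenchyme and veins, by 1.70 ± 0.39 (adjusted p = 0.00726). The count of falls was 6 with quantile normalization, 5 with arrays centred on all probe sets and 13 with centring on the kept genes. In Ngn3-GFP+ cells 8 of the 18 were higher and 0 lower by limma (8 and 1 at an unadjusted p under 0.05), and with centring on all probe sets 2 were higher and 2 lower. Of 13 further stellate cell and pericyte genes 7 rose and 2 fell from e15.5 to p23 (median change 0.29). The counts were 5 and 2 with quantile normalization (median 0.06) and with centring on all probe sets (median 0.13). With centring on the kept genes they were 7 and 1 (median 0.41). Angpt1, the angiopoietin that pericytes supply to endothelium, rose by 3.58 ± 0.53 (adjusted p = 0.000108). Between the p23 sorts 4 were higher and 4 lower in GFP- cells, or 5 and 2 with quantile normalization and with centring on the kept genes.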

How the data were processed

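Gene expression was measured on Affymetrix arrays of amplified RNA from 15 sorts in 5 groups. The deposited values are linear intensity values per probe set. The submitters' processing notes name PLIER and Affymetrix Expression Console 1.1 as the authors' tools. A normalization between arrays was not given in the sources used here.

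Of 35557 probe sets, the 21789 that name 1 gene in the platform annotation were kept, and a gene with several took the one of highest mean. Genes above intensity 97.8, the 30th percentile, in at least 3 arrays were tested (16883). Values became log2(intensity + 16). A limma model with 5 group means was fitted to all arrays at once, and 5 contrasts were adjusted by Benjamini-Hochberg over all genes, with calls at 0.05. The script was tested on simulated data. With 3 against 3 arrays an exact test cannot go below 0.1. No 2 arrays were identical. The number of arrays limits the precision.

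The members and all gene lists were chosen with earlier results of these data known. In each comparison up to 8 called members by size, up to 3 genes of each other list, and per role the called member of largest change were named with their values. Further members were named where their lack of a call mattered, and Cd3e and Csf1r were chosen after their values were seen. Alternatives were the offset, scaling, filter, probe set choice, groups in the fit, variance model, weights for arrays, a block for the replicate number, and each array left out. Centring on the kept genes was added after seeing the data. Replicate numbers did not pair the samples by the correlation of their deviations. Promoter windows came from RefSeq, GRCm38.p6. Software was R 4.3.3, limma 3.58.1, Python 3.11.15 and matplotlib 3.10.9.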

Additional observations from a re-analysis of the deposited data

How the results depend on the processing

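Counts of called members kept within 1.5 times of 14, 20, 24 and 22 in the comparisons other than Ngn3-GFP+ against Sox9-GFP+, under each alternative except the removal of single arrays. The 11 calls between the e15.5 sorts became 7 with quantile normalization, 5 with arrays centred on all probe sets and 7 with the filter at the median. With single arrays left out the counts ran from 8 to 17 for e15.5 against e10.5, 15 to 19 for p23 against e15.5, 19 to 24 for p23 against e10.5, 7 to 16 for Ngn3-GFP+ against Sox9-GFP+ and 11 to 16 for GFP- against Sox9-GFP+. For e15.5 against e10.5 the count was 8 without replicate 3 of e15.5 and 9 without replicate 2 or 3 of e10.5. For GFP- against Sox9-GFP+ it was 11 and 12 without GFP- replicate 2 and 1, and 14 without Sox9-GFP+ replicate 1 or 2. The cause was not tested. Called in every alternative were 8 of 14, 11 of 20, 18 of 24, 5 of 11 and 8 of 22 members. No called member changed direction.

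The labels number replicates in each group, but same-numbered arrays did not deviate together in every pair, with correlations of -0.15, -0.16 and -0.21 between e15.5 and e10.5 for example. With the replicate block the counts were 13, 18, 23, 11 and 19. Lox, Lum, Dcn, Mgp, Prrx1 and Cnn1 lie below the filter level on all 3 arrays of e10.5, so the size of their change depends on the offset. The same holds for Meox1 and Col5a2 on the 3 Sox9-GFP+ arrays of e15.5 and for Lox on those of p23.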
